A study of Rattus norvegicus with 6 samples.

Results

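The genes described here are 9 genes of glycerol-3-phosphate metabolism, of 40154 in the deposited gene table: the glycerol-3-phosphate dehydrogenases Gpd1l, Gpd1 and Gpd2, glycerol kinase (Gk), the acyltransferases Gpam, Agpat1, Agpat2 and Agpat3, and the phosphatase lipin 1 (Lpin1). They were chosen by symbol, as the target of an siRNA, its paralogs and the enzymes that make, use or pass on glycerol-3-phosphate. All 9 had enough reads to be tested. The cells were primary atrial fibroblasts of Sprague-Dawley rats 1 to 3 days old, prepared from minced hearts by letting non-myocytes attach during 1.5 h of preplating. Fibroblasts of both groups carried the treatment label "Atrial differentiation" and were sequenced 24 h after transfection, 3 libraries with a control siRNA (si-NC) and 3 with an siRNA against Gpd1l (si-GPD1L). The study examined GPD1L as a target of the microRNA miR-210-3p in these cells, and reports that siRNAs silenced it in atrial fibroblasts. The comparison is between fibroblasts given the siRNA against Gpd1l and those given the control siRNA. In these libraries Gpd1l RNA itself was not called lower in si-GPD1L, as given below. Both group names stand here for the labels that the libraries carry. Whether the digit at the end of a si-GPD1L name numbers a repeat of 1 siRNA or a different siRNA was not given in the sources used here. Nothing in the labels says that the libraries of a group came from separate cultures or animals, so the p-values measure the spread between these libraries, which may be technical.

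Glycerol-3-phosphate stands between sugar metabolism and lipid synthesis. The cytosolic dehydrogenases encoded by Gpd1 and Gpd1l interconvert it with dihydroxyacetone phosphate at the expense of NADH, and the mitochondrial enzyme encoded by Gpd2 oxidizes it again on the inner membrane. The cytosolic and mitochondrial enzymes together form the glycerol phosphate shuttle, which carries reducing equivalents to the respiratory chain. Glycerol kinase makes the same metabolite from free glycerol. Acyltransferases then add fatty acids to it in succession, giving lysophosphatidate (Gpam, at the mitochondrial outer membrane) and phosphatidate (the Agpat enzymes), and lipins remove the phosphate to give diacylglycerol, the precursor of triglyceride and of several phospholipids.

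The microRNA that the study placed upstream of Gpd1l is shown first because the study took Gpd1l as its target. Its mature sequence was taken from RefSeq (GRCr8, chr1:205755946-205755967, minus strand), with the seed, bases 2 to 8, in capitals.
rno-miR-210-3p: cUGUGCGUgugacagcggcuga

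For 7 of the 9 genes a RefSeq window around the transcription start was at hand, from 250 bases before to 50 bases after it. The windows of Lpin1 and Gpd2 are printed, as the genes among the 9 whose normalized counts did not overlap between the groups. Such separation was found for 29% of all genes tested. Lpin1 lay lower and Gpd2 higher in si-GPD1L, but neither passed an adjusted p under 0.05 in the main comparison. Capitals mark GC boxes, GGGCGG on either strand.
Lpin1, GRCr8, chr6:45108893-45109192, minus strand: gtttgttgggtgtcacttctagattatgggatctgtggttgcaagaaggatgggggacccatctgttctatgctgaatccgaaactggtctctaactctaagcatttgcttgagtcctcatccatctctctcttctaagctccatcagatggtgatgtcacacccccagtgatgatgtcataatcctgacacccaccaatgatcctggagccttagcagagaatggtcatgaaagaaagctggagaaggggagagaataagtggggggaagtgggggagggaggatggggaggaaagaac
Gpd2, GRCr8, chr3:62211403-62211702, plus strand: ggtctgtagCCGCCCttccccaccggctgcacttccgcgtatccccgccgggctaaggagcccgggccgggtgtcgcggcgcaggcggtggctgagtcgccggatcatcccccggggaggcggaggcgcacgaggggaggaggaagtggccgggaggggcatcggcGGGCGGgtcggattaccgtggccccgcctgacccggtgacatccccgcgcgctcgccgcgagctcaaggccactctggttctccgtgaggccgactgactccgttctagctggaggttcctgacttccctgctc

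The Lpin1 window held 49% G and C, more than 39.8% of the 33469 windows searched, and no GC box, and its start lay 36903 bases inside the outer end of the annotated gene, so it is the window of 1 of the possible starts. The Gpd2 window held 72% G and C, more than 94.1% of all windows, and 2 GC boxes. GC boxes also stood in the windows of Gk (5), Agpat1 (1) and Agpat2 (8), and not in those of Gpam and Agpat3, whereas 33.1% of all windows held at least 1. The start in the Agpat3 window lay 53531 bases inside the outer end of its gene, so it too is 1 of the possible starts. None of the 7 windows held, on either strand, the sterol regulatory element TCACNCCAC (in 1.12% of all windows), the E-box CACGTG (6.42%) or the core of the interferon-stimulated response element, GAAANNGAA (9.71%). The 4 motifs were searched independently, and a match is a description of letters only.

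Library depth was even, from 16892255 to 20149732 counts. Markers of fibroblasts were abundant, with a summed level of 21438 to 27653 TPM (read counts per gene length, scaled to a common sum) over the control libraries. Over the si-GPD1L libraries the sum was 29404 to 29702. Most of it was Col1a1, with a mean of 16846 TPM in si-NC and 21126 in si-GPD1L, which was not called (edgeR adjusted p = 0.219). Of the 10 markers 0 rose and 2 fell, against 4.03% and 2.33% of all genes tested. Those that fell were Dcn (log2 fold change -0.66, edgeR adjusted p = 0.0129) and Lum (-0.77, edgeR adjusted p = 0.0058). Only 2 of the 10 log2 fold changes were positive. Atrial cardiomyocyte markers were also present, at 2893 to 3061 TPM summed in the control libraries and 2693 to 2864 in si-GPD1L, with 0 of 8 called by the quasi-likelihood test, 3 at an unadjusted p under 0.05, and 0 by DESeq2 or edgeR's exact test. Endothelial markers summed to 21.6 to 28.5 TPM in the control libraries and 38.9 to 45.9 in si-GPD1L. Of the 7 tested markers 4 were higher, against 4.03% of all genes tested. Macrophage markers summed to 215 to 246 TPM in the control libraries and 204 to 295 in si-GPD1L, with 0 of 8 called by the quasi-likelihood test, 0 at an unadjusted p under 0.05, and 0 by DESeq2 or edgeR's exact test. Smooth muscle and pericyte markers summed to 290.1 to 319.9 TPM in the control libraries and 278 to 320.0 in si-GPD1L. Of these 7 markers, Cspg4 rose (log2 fold change 0.80, edgeR adjusted p = 0.0013) and Des fell (-0.35, edgeR adjusted p = 0.0282), and DESeq2 and edgeR's exact test each called 4. The 7 adipocyte markers summed to 15.6 to 19.5 TPM in the control libraries and 15.9 to 17.2 in si-GPD1L, nearly all of it Fabp4, which was the only one with enough reads to be tested and was not called (edgeR adjusted p = 0.641). Cidec and Lep were at 0 in all but 1 library each. Interferon-stimulated genes, which cells switch on in response to foreign RNA and to interferon, separated the groups most plainly. In this list 20 of 20 were higher, against 4.03% of all genes tested, but it was chosen with earlier results of these data known. The summed level of the list was 183 to 185 TPM in the control libraries and 1624 to 1999 in si-GPD1L. The part of these differences in the values of the 9 genes was not tested. In bulk RNA, fewer cells of a type and less RNA per cell cannot be told apart.

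Expression per length spanned a wide range among the 9 genes. In si-NC, Agpat1 was the most abundant, at 81.1 ± 2.38 TPM (SD, n = 3), followed by Agpat2 (37.7 ± 1.65), Gpd1l (30.8 ± 4.97), Gpam (23.0 ± 3.88), Agpat3 (13.2 ± 0.989), Lpin1 (7.76 ± 2.16), Gpd2 (6.20 ± 0.530), Gk (5.79 ± 0.439) and Gpd1 (0.982 ± 0.361). Gpd1l was thus the most abundant of the 3 glycerol-3-phosphate dehydrogenase transcripts, and its better known paralog Gpd1 was the lowest of the 9. The ranges over the si-NC libraries overlapped between Gpd1l and Gpam, between Lpin1 and Gpd2 and between Gpd2 and Gk, and every other pair of neighbours in the order was apart. In si-GPD1L the order began in the same way, with Agpat1, Agpat2, Gpd1l, Gpam and Agpat3. It then changed, as Lpin1 (5.51 ± 0.489 TPM) stood behind Gpd2 (7.26 ± 0.376) and level with Gk (5.51 ± 0.441). Fold changes of single genes were taken from normalized counts and not from TPM. Relative to normalized counts, the TPM scale was on average 1.06 times as high in si-GPD1L as in si-NC, so a ratio of TPM values or sums between the groups reads slightly too high, the marker sums included, whereas shares of a sum are not affected. Gene lengths ran from 837 bases for Agpat2 to 6849 bases for Lpin1, and levels depend on these lengths.

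**Figure D1:**
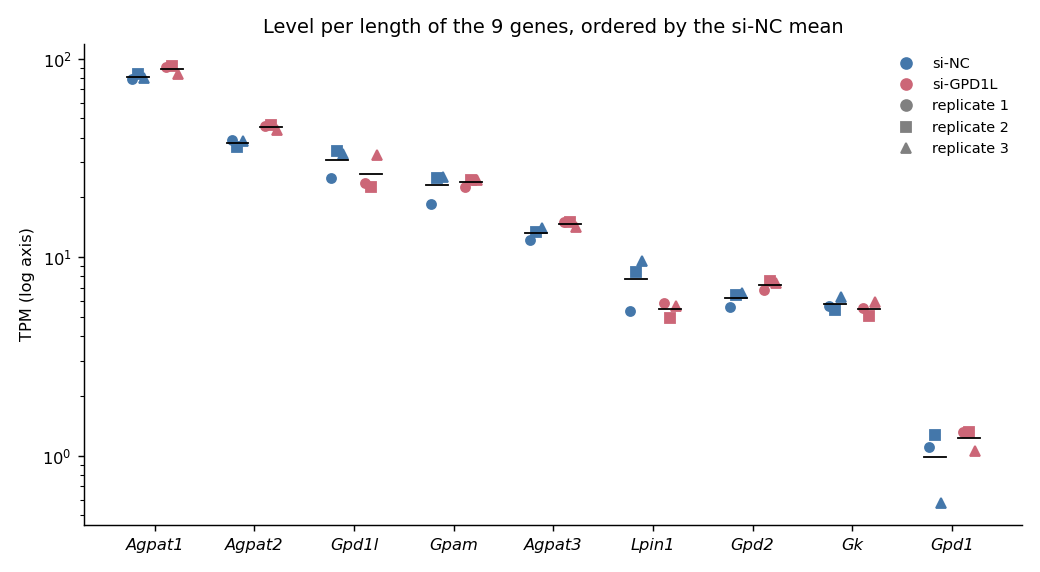
Level of each gene in TPM (log axis) in every library, blue for si-NC and red for si-GPD1L, with a symbol for each replicate number and a black line at the group mean. Agpat1 was highest and Gpd1 lowest in both groups, and Lpin1 lay among Gpd2 and Gk in si-NC and level with Gk, below Gpd2, in si-GPD1L.

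Gpd1l, the siRNA target, lies on the minus strand of rat chromosome 8 (rn6, chr8:122957570-122987236) and had a single annotated transcript. Its normalized counts (counts scaled to a common library size) were 262, 332 and 313 in si-NC replicates 1 to 3 and 220, 208 and 302 in si-GPD1L replicates 1 to 3. Replicates 1 and 2 of si-GPD1L lay under every si-NC library, whereas replicate 3 lay within the si-NC range, so the groups overlapped. The log2 fold change was -0.31 ± 0.147 (SE), which leaves 80.5% of the si-NC level, with a 95% interval of 64.5% to 100.5%. The difference was not called (edgeR quasi-likelihood test with Benjamini-Hochberg adjustment, adjusted p = 0.234). An exact two-sided permutation test of the normalized counts gave p = 0.2, where 0.1 is the smallest p that 3 against 3 libraries allow. The direction was kept under all 14 alternative settings, with adjusted p between 0.0604 and 0.579. The size depended on which library was left out, from -0.21 without si-GPD1L replicate 2 to -0.50 without si-GPD1L replicate 3 (edgeR adjusted p = 0.579 and 0.0733).

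Gpd1 (chr7:141368928-141377931, plus strand), the paralog that could take over the cytosolic reaction, was barely expressed, with 32.6, 34.9 and 15.6 normalized counts in si-NC and 34.9, 34.5 and 28.0 in si-GPD1L. The groups overlapped, and the lowest value was that of si-NC replicate 3. The log2 fold change was 0.23 ± 0.314 (117.5% of si-NC, 95% interval 73.3% to 188.5%, edgeR adjusted p = 0.715). At this depth counting error alone gave a coefficient of variation of 18.3%, and the interval leaves room for a level of up to 188.5% of si-NC. The direction rested on si-NC replicate 3, since without it the log2 fold change was -0.06.

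Gpd2 (chr3:43223892-43359069, plus strand), which encodes the mitochondrial enzyme, had 261, 278 and 280.1 normalized counts in si-NC and 287, 314 and 306 in si-GPD1L. Every si-GPD1L library lay above every si-NC library. The difference was nevertheless small, with a log2 fold change of 0.15 ± 0.0967 (110.8% of si-NC, 95% interval 95.7% to 128%), and was not called (edgeR adjusted p = 0.400). Groups that did not overlap were common in these libraries, at 29% of all genes tested.

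The 3 dehydrogenases were then put on a common scale per length. Normalized counts per kilobase of Gpd1l were 240 ± 28.8 in si-NC and 193 ± 40.7 in si-GPD1L, a difference of -46.7, whereas Gpd1 went from 7.72 ± 2.94 to 9.04 ± 1.09, a difference of 1.32, and Gpd2 from 48.4 ± 1.87 to 53.6 ± 2.46, a difference of 5.16. None of the 3 genes passed the test. On this scale, where the level of a gene weighs on its difference, those of the paralogs were small beside that of Gpd1l. The log2 fold changes were nearer in size, at -0.31 for Gpd1l, 0.23 for Gpd1 and 0.15 for Gpd2. The summed level of the cytosolic pair, Gpd1l and Gpd1, was 31.8 ± 4.93 TPM in si-NC and 27.4 ± 5.40 TPM in si-GPD1L (exact two-sided permutation test, p = 0.3, n = 3 each). In normalized counts per kilobase, which are free of the shift in the TPM scale, the same sum was 248 ± 28.5 and 202 ± 39.6 (exact two-sided permutation test, p = 0.2). Gpd1l made up 79.0%, 81.7% and 82.2% of the summed TPM of the 3 genes in si-NC and 74.3%, 71.7% and 79.4% in si-GPD1L, with replicate 3 of si-GPD1L again reaching into the si-NC range (exact two-sided permutation test, p = 0.2). The 3 permutation tests of the summed TPM, the share and the normalized count of Gpd1l each had an adjusted p of 0.3, and the design could not reach 0.05. Gpd2 made up the larger part of the rest, 16.4% ± 1.14 in si-NC and 21.2% ± 3.09 in si-GPD1L, and Gpd1 supplied 3.16% ± 1.28 and 4.64% ± 1.3 of the cytosolic pair.

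**Figure D2:**
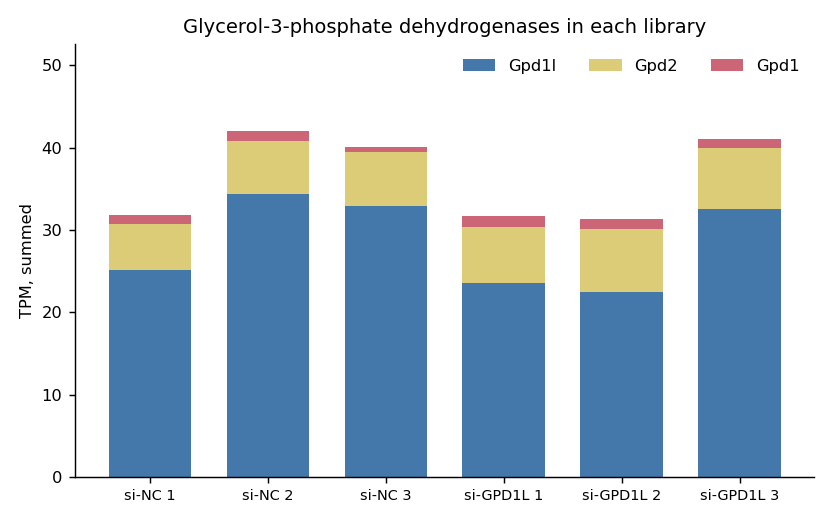
Stacked TPM of Gpd1l (blue), Gpd2 (yellow) and Gpd1 (red) in each library. Gpd1l fills most of every bar, at 71.7% to 82.2% of the sum, and replicate 3 of si-GPD1L resembles si-NC replicates 2 and 3 in height.

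Glycerol kinase (Gk, chrX:54227291-54303897, minus strand) offers the route to glycerol-3-phosphate that does not pass through a dehydrogenase. Its normalized counts were 208, 183 and 209 in si-NC and 182, 164 and 193 in si-GPD1L. The ranges overlapped, and the log2 fold change of -0.16 ± 0.12 (89.6% of si-NC, 95% interval 74.8% to 107%) was not called (edgeR adjusted p = 0.473). Of the 7 annotated Gk transcripts, 6 had negative log2 fold changes, from -0.26 to -0.12, and the shortest, of 1872 bases, had 0.21 ± 0.160 (edgeR adjusted p = 0.482). None of the 7 passed the test, and the difference between them was not tested.

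Gpam (chr1:275843823-275906880, minus strand), the mitochondrial glycerol-3-phosphate acyltransferase that commits glycerol-3-phosphate to lipid synthesis, had 1044, 1313 and 1306 normalized counts in si-NC and 1150, 1229 and 1234 in si-GPD1L. The si-GPD1L libraries all lay inside the si-NC range. Its log2 fold change was -0.02 ± 0.0912 (98.7% of si-NC, 95% interval 86.0% to 113%, edgeR adjusted p = 0.929), and the sign changed when any of 3 libraries was left out.

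The 3 Agpat genes encode 1-acylglycerol-3-phosphate acyltransferases of the endoplasmic reticulum, which make phosphatidate. Agpat1 (chr20:4369399-4378272, plus strand) had 1775, 1739 and 1637 normalized counts in si-NC and 1816, 1829 and 1664 in si-GPD1L. Agpat2 (chr3:4044741-4055384, minus strand), the isoform known for its need in adipose tissue, had 269, 230 and 242 in si-NC and 286, 285 and 269 in si-GPD1L. Agpat3 (chr20:11060584-11144806, plus strand) had 664, 681 and 704 in si-NC and 739, 729 and 691 in si-GPD1L. All 3 overlapped between the groups, Agpat2 only because si-NC replicate 1 was just above si-GPD1L replicate 3. Their log2 fold changes were 0.04 ± 0.0707 for Agpat1, 0.18 ± 0.104 for Agpat2 and 0.07 ± 0.0758 for Agpat3, and none was called (edgeR adjusted p = 0.766, 0.337 and 0.611). The upper bounds of the 95% intervals were 115%, 132% and 118% of si-NC. Agpat1 lies wholly within the span of Stk19 on the opposite strand, which had 1082 counts over the 6 libraries against 10459 for Agpat1, and the strand setting of the counting was not given in the sources used here, so reads of the pair cannot be told apart.

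Lpin1 (chr6:41796214-41905149, minus strand) had the largest log2 fold change of the 9 genes. Lipin 1 dephosphorylates phosphatidate to diacylglycerol and is also known as a nuclear coregulator of fatty acid oxidation genes. Its normalized counts were 303, 441 and 492 in si-NC and 299, 249 and 287 in si-GPD1L. All si-GPD1L libraries lay below the si-NC libraries, but si-NC replicate 1 stood only just above them. In TPM the groups overlapped, from 5.35 to 9.52 in si-NC and from 4.95 to 5.87 in si-GPD1L. The log2 fold change was -0.57 ± 0.156, or 67.5% of si-NC (95% interval 53.4% to 85.4%). It narrowly missed the threshold (edgeR quasi-likelihood test, adjusted p = 0.0513). It was past the threshold under 7 of 14 alternatives, DESeq2 and edgeR's exact test among them, and adjusted p ranged from 4.36e-05 to 0.227. The lowest of these came without si-NC replicate 1, where the log2 fold change was -0.75.

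The 2 annotated Lpin1 transcripts were then read separately. The longer, of 6581 bases, had 307, 429 and 482 normalized transcript counts in si-NC and 297, 242 and 283 in si-GPD1L, with no overlap. It was the only one of 27 transcripts of the 9 genes to pass the test (log2 fold change -0.57 ± 0.149, edgeR adjusted p = 0.0415), against 5.89% of the 37822 transcripts tested. The shorter, of 3083 bases, had 134, 196 and 257 in si-NC and 159, 128 and 156 in si-GPD1L, overlapping between the groups (log2 fold change -0.41 ± 0.199, edgeR adjusted p = 0.248). Reads shared by both transcripts may count for each. The call of the longer transcript was lost without any 1 of si-NC replicates 2 and 3 (adjusted p = 0.113 and 0.0781) or si-GPD1L replicates 1, 2 and 3 (0.107, 0.216 and 0.0973), and without si-NC replicate 1 it was 3.48e-05.

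**Figure D3:**
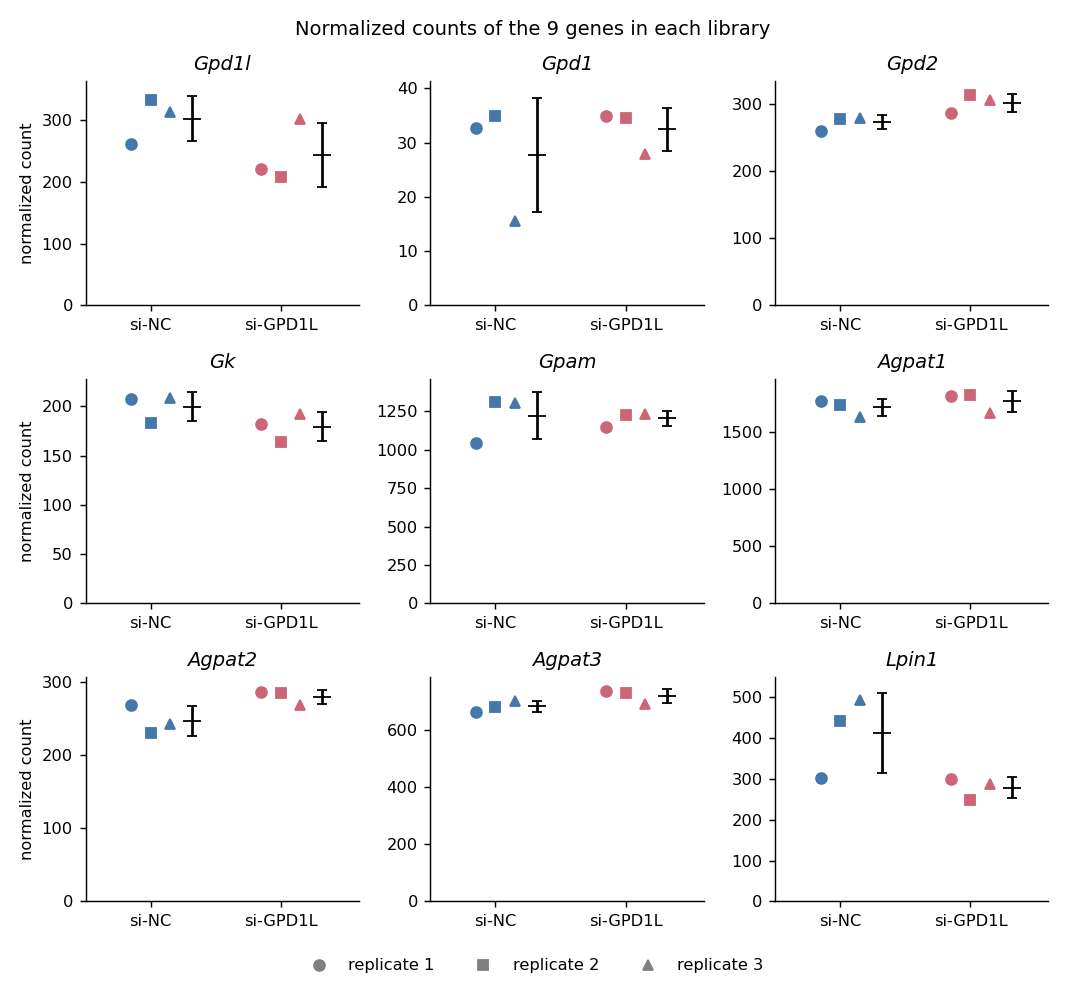
Normalized counts of the 9 genes by library, blue for si-NC and red for si-GPD1L, each axis starting at 0. The symbol gives the replicate number, and the black bar the mean ± SD of 3 libraries. Only in Gpd2 (above) and Lpin1 (below) do the groups not overlap, and replicate 3 of si-GPD1L carries the highest Gpd1l of its group.

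Counted together, 0 of the 9 genes passed an adjusted p under 0.05 in edgeR's quasi-likelihood test, against 6.36% of the 14852 genes tested, 4.03% higher and 2.33% lower. One gene, Lpin1, had an unadjusted p under 0.05, and DESeq2 and edgeR's exact test each called that gene and no other. With the study's further requirement of an absolute log2 fold change over 1, 0 of 9 passed, against 1.62% of all genes. The groups did not overlap in 2 of 9, against 29% of all genes tested. Of the 9 log2 fold changes 5 were positive, their median was 0.04 and they ran from -0.57 to 0.23. Over all genes tested the median was -0.0049 and the quartiles lay at -0.15 and 0.15.

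**Figure D4:**
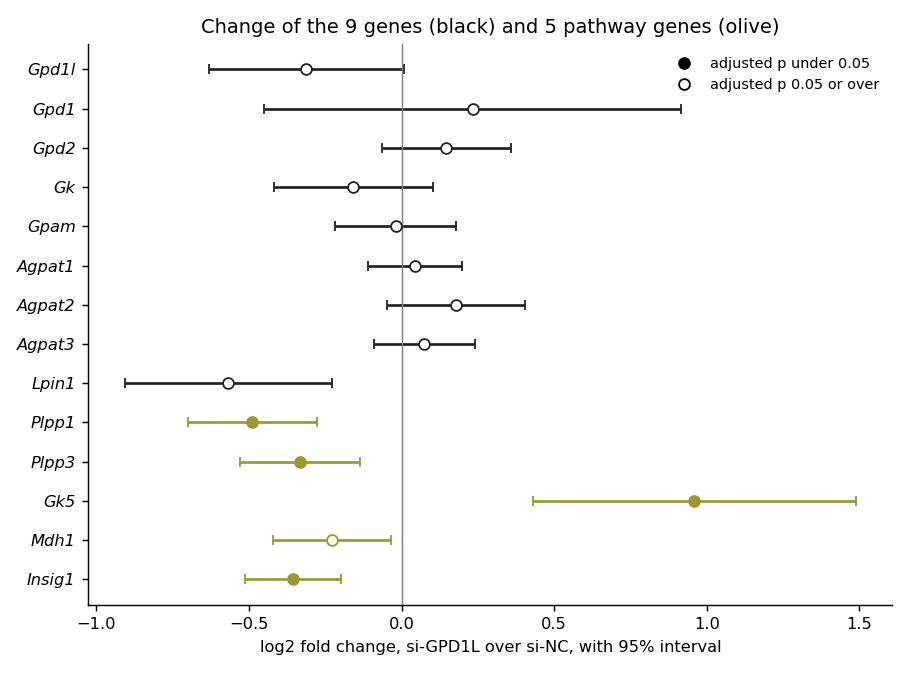
Log2 fold change of si-GPD1L over si-NC with its 95% interval for the 9 genes (black) and the 5 pathway genes named by rule (olive), filled where the adjusted p was under 0.05. All 9 black symbols are open, the interval of Lpin1 alone among them lies clear of 0, and Gpd1 has the widest interval.

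The wider pathway was read from 4 lists with 71 further genes, of which 63 were tested. By the quasi-likelihood test 1 rose and 3 fell, 4 of 63 in all, against 6.36% of all genes tested. The median log2 fold change of the 63 was -0.02, and in 13 the groups did not overlap, against 29% of all genes tested.

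Glycerolipid synthesis downstream of glycerol-3-phosphate had 23 of 24 genes tested, with 0 higher, 2 lower and a median of -0.01. Both genes that fell encode membrane phosphatases that act on phosphatidate and related lipid phosphates. Plpp1 had 2843, 2693 and 2705 normalized counts in si-NC and 1640, 1996 and 2236 in si-GPD1L, without overlap (log2 fold change -0.49 ± 0.0978, edgeR adjusted p = 0.0111). Plpp3 had 851, 830 and 848 in si-NC and 588, 675 and 744 in si-GPD1L, again without overlap (log2 fold change -0.33 ± 0.0902, edgeR adjusted p = 0.0481). The Plpp1 call was lost without si-GPD1L replicate 2 (adjusted p = 0.0640), and that of Plpp3 without si-NC replicate 2 (0.104) or 3 (0.0614) or si-GPD1L replicate 1 (0.217) or 2 (0.185), and when each library had to hold 10 counts or more of a gene (0.0502).

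The paralogs of the acyltransferases and of lipin 1 in this list were looked at for their family, after their values had been seen. Lpin2, a second phosphatidate phosphatase, had 518, 658 and 709 normalized counts in si-NC and 916, 793 and 700 in si-GPD1L. Its log2 fold change of 0.35 ± 0.123 was opposite in sign to that of Lpin1 and did not pass the test (edgeR adjusted p = 0.113). Lpin2 passed with no filter beyond 1 count (adjusted p = 0.00608) and without si-NC replicate 3 (log2 fold change 0.45, edgeR adjusted p = 0.0453), and its log2 fold change was 0.23 without si-NC replicate 1. Lpin3 had 0.10 ± 0.0920 (edgeR adjusted p = 0.556). Gpat4, the microsomal counterpart of Gpam, had 1508, 1768 and 1825 normalized counts in si-NC and 2039, 2008 and 1939 in si-GPD1L, above but not called (log2 fold change 0.23 ± 0.0801, edgeR adjusted p = 0.111). Gpat3, Agpat4 and Agpat5 had log2 fold changes of 0.24, 0.06 and -0.04, and none was called (edgeR adjusted p = 0.434, 0.655 and 0.763).

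Glycerol handling, lipolysis and triose phosphate metabolism had 13 of 18 genes tested, with 1 higher, 0 lower and a median of 0.06. The gene that rose was Gk5, a glycerol kinase family member, with 27.7, 24.3 and 28.3 normalized counts in si-NC and 56.7, 59.1 and 40.9 in si-GPD1L. The groups did not overlap, and the log2 fold change was 0.96 ± 0.243 (194.5% of si-NC, 95% interval 135% to 281%, edgeR adjusted p = 0.0370). Gk5 stayed a low transcript, at 2.0 TPM in si-GPD1L against 5.51 for Gk. Its call was lost without si-NC replicate 2 (adjusted p = 0.107) or si-GPD1L replicate 1 (0.151) or 2 (0.185).

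The malate-aspartate shuttle, the other route by which cytosolic NADH reaches the mitochondria, had all 7 of its genes tested and 0 called, with a median of 0.02. One of the 7 had an unadjusted p under 0.05, and DESeq2 and edgeR's exact test called 0. It was Mdh1, the cytosolic malate dehydrogenase, with 2741, 2334 and 2124 normalized counts in si-NC and 2001, 2090 and 2060 in si-GPD1L (log2 fold change -0.23 ± 0.0887, edgeR adjusted p = 0.153). Without si-NC replicate 3 Mdh1 was called (log2 fold change -0.31, edgeR adjusted p = 0.0391), and without si-NC replicate 1 its log2 fold change was -0.12 (edgeR adjusted p = 0.206).

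Acyl-CoA supply and lipogenic regulators had 20 of 22 genes tested, with 0 higher, 1 lower and a median of -0.13. Insig1, which holds the SREBP transcription factors in the endoplasmic reticulum and is itself one of their targets, had 7168, 6629 and 6463 normalized counts in si-NC and 5120, 5231 and 5477 in si-GPD1L. All si-GPD1L libraries lay below the si-NC libraries, and the log2 fold change was -0.36 ± 0.0728 (edgeR adjusted p = 0.0125). The call was lost without si-GPD1L replicate 1 (adjusted p = 0.0923) or 2 (0.103).

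**Figure D5:**
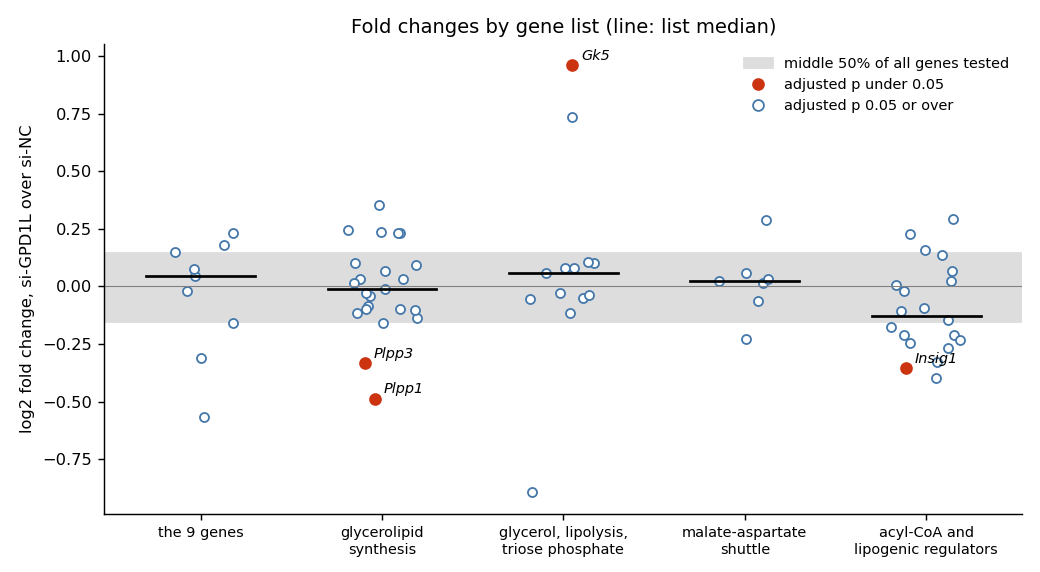
Log2 fold changes of the 9 genes and of the 4 pathway lists, each point a gene, red where the adjusted p was under 0.05, with a black line at the median of each list and the middle 50% of all genes tested in grey. Most points lie in or near the grey band, and the 4 red points are Gk5 above and Plpp1, Plpp3 and Insig1 below it.

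In si-NC, replicate 1 was the lowest of its group for 5 of the 9 genes (Gpd1l, Gpd2, Gpam, Agpat3 and Lpin1), and for 39.4% of all genes tested. It also stood apart from its group. The chi-square per degree of freedom between the counts of paired libraries, which grows with their difference, was 19.7 and 27.4 for its pairs. For si-NC replicates 2 and 3 it was 8.35, and within si-GPD1L 3.89 to 5.81. Col1a1 held 3.39% of the counts of si-NC replicate 1, against 4.49% to 4.99% in the other libraries. In si-GPD1L, replicate 3 held the highest Gpd1l. The interferon-stimulated genes summed to 1624 TPM or more in every si-GPD1L library, and to 185 TPM at most in si-NC. A link between the level of Gpd1l and these genes was not tested.

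The genes whose pattern over the 6 libraries was most like that of Gpd1l were found by the root mean square difference of centred log2 normalized counts, among 10936 genes with a mean of at least 50. They were Trim44 (0.0665), Islr2 (0.0833) and Adamts4 (0.0839). Trim44 had 378, 360 and 505 normalized counts in si-GPD1L and a log2 fold change of -0.32 ± 0.132 (edgeR adjusted p = 0.175). These genes were picked for likeness over these same libraries, so a pattern and a fold change near those of Gpd1l follow from the choice. None of the other 8 genes of glycerol-3-phosphate metabolism came as near to Gpd1l as these, and no cutoff for closeness was set. Gk was the nearest, at rank 1007 against the 10936 genes, then Gpam at 1538 and Lpin1 at 1621. Gpd1 was the farthest, at rank 10703, but its mean lay below the 50 asked of the 10936 genes, where counting error is large.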

How the data were processed

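The samples were polyA-selected libraries of rat atrial fibroblasts (Illumina, paired ends), 3 of each group, grouped by GEO's labels. The authors deposited raw read counts for genes and transcripts, and TPM per gene computed from those counts and gene lengths. The submitters' processing notes name bcl2fastq, HISAT2 2.1.0, HTSeq 0.12.4 and the build rn6, without roles; the strand setting was not given in the sources used here. The deposited comparison, GO and KEGG tables hold the authors' own fold changes, p-values and terms and were not used.

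From the counts, edgeR 4.0.16 (R 4.3.3) kept 14852 genes by filterByExpr, scaled them by TMM and tested si-GPD1L against si-NC by quasi-likelihood (glmQLFTest), with Benjamini-Hochberg adjustment over all genes tested. A gene was called at an adjusted p under 0.05; the count with an absolute log2 fold change over 1, the study's criterion, is given beside it. The SE is the log2 fold change divided by the root of F. The 37822 transcripts tested were treated likewise. Alternatives were other scalings and filters, DESeq2 1.42.0, edgeR's exact test, a replicate block and each library left out. On simulated counts, 197 of 200 genes changed 2-fold were recovered, with 5 false calls among 14829 genes. Smaller changes, such as those of the genes described here (log2 fold changes from -0.57 to 0.23), were not simulated. The recovery therefore does not show how often changes of that size would be called. Every simulated gene had the same biological spread, no library stood apart, and genes with low counts were left unchanged. The recovery and the false calls hold for those settings only. Transcript counts summed to more than the gene totals, so reads may count for several transcripts.

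The 9 genes, the lists and the tests were chosen with earlier results of these data known. Genes of the pathway lists were named by rule: at most 4 with an adjusted p under 0.05, otherwise the 1 with the smallest p. Promoter windows and the miRNA are from RefSeq (GRCr8), and 7 of the 9 genes matched. Gene coordinates are those of the deposited table (rn6).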

Additional observations from a re-analysis of the deposited data

How the results depend on the processing

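Of the 9 genes, 0 were called in the main comparison and 1, Lpin1, with upper-quartile scaling, library totals alone, DESeq2, edgeR's exact test, no filter beyond 1 count, or the replicate block; leaving out 1 library gave 0 to 1, the 1 without si-NC replicate 1. Over all genes, 945 calls became 240 with the fold threshold, 1528 with the exact test, 1929 unfiltered, and 361 to 1531 with 1 library left out (361 without si-GPD1L replicate 2, 366 without si-GPD1L replicate 1, 550 and 591 without si-NC replicate 2 and si-GPD1L replicate 3, 1531 and 1451 without si-NC replicates 1 and 3). The other pathway genes called numbered 4, or 8 without a filter and 0 to 7 with 1 library left out; with the fold threshold none passed. Transcripts of the 9 genes called were 1, and 0 to 3 with 1 library left out. With 1 library left out, the log2 fold change of Gpd1 ran from -0.057 to 0.43 and that of Gpam from -0.12 to 0.034; both changed sign, Gpam without si-NC replicate 2 or 3 or si-GPD1L replicate 1. Gpd1l, Gpd2, Gk, Agpat1, Agpat2 and Agpat3 kept direction and call under all 14 alternatives. Same-numbered libraries did not deviate together (correlations of -0.01, -0.006 and 0.04, and 1 of 3 pairs was the best match of its libraries), so the numbers were not taken as pairs; the replicate block gave 921 calls over all genes and 1 of the 9, and the call of Gk5 was lost under it (adjusted p = 0.056). The cause of these shifts was not tested. Depth limits Gpd1 most, at 15.6 to 34.9 normalized counts a library.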

Other observations

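Scd and Scap, a pair of lipogenic genes named here after their values were seen, did not pass the threshold in the main comparison. Scd, the delta-9 desaturase that makes oleate, had 2939, 3143 and 3381 normalized counts in si-NC and 2667, 2618 and 2687 in si-GPD1L, all lower (log2 fold change -0.25 ± 0.0718, edgeR adjusted p = 0.0615). Scd was past the threshold under 5 of 14 alternatives, namely upper-quartile scaling (adjusted p = 0.0425), DESeq2 (0.0442), edgeR's exact test (0.0403), no filter beyond 1 count (0.0402) and without si-NC replicate 1 (0.000887), and the adjusted p reached 0.256 without si-GPD1L replicate 2. Scap, the escort protein of the SREBP factors, had 1570, 1873 and 1782 in si-NC and 2054, 2008 and 2063 in si-GPD1L, all higher (log2 fold change 0.23 ± 0.0763, edgeR adjusted p = 0.0974), and passed under none of the 14, with adjusted p from 0.0712 to 0.272. Of the 20 tested genes of acyl-CoA supply and lipogenic regulation, 7 had an unadjusted p under 0.05 in edgeR's quasi-likelihood test, as did 3324 of all 14852 genes tested. That test called 1, Insig1, and DESeq2 and edgeR's exact test each called 2.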
